A study of Mus musculus with 6 samples.

Results

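The genes described here are 10 genes of goblet cells, the mucus-secreting cells of the intestinal epithelium, namely Muc2, Agr2, Fcgbp, Spink4, Clca1, Zg16, Tff3, Spdef, Klf4 and Retnlb. They were chosen by name, and all 10 were found among the 55416 genes of the deposited table through their Ensembl identifiers. RNA-Seq had been performed on small intestinal organoids, which are epithelial structures grown in Matrigel from crypts of the duodenum and jejunum of 3 C57BL/6 mice of WT genotype. Crypts of each mouse were cultured for 5 days with 50 μg/ml LDL or with PBS as the control, which gave 3 LDL-treated and 3 PBS-treated libraries, paired by mouse. Organoids of this kind hold epithelium without the stromal, immune and microbial surroundings of the gut, and the age and sex of the mice are not given in the sources used here. The libraries held between 22061545 and 31073360 reads assigned to genes. The LDL-treated library of mouse 1 stood apart, with 7.62% of its reads on the ribosomal RNA gene Rn18s-rs5, against 0.0826% to 3.02% in the others. It also had reads on 35781 genes, against 32751 in the LDL-treated library of mouse 3 and 29285 to 30018 in the other 4.

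Goblet cells belong to the secretory lineage, which the transcription factor Atoh1 sets apart from absorptive enterocytes when Notch signaling is low. Spdef and Klf4 act later, in goblet cell maturation. The cells fold the giant mucin Muc2 in the endoplasmic reticulum with help from Agr2, coat it with O-linked sugars in the Golgi, pack it into granules and release it together with Fcgbp, Clca1, Zg16, Tff3 and other small proteins to form the mucus layer. In the small intestine this layer is loose and covers the villi, and goblet cells are fewer than in the colon.

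Levels were first compared per length, as TPM, that is, reads per kilobase of merged exons scaled to the same total over the 21627 protein-coding genes. In PBS-treated organoids Spink4, which encodes a small secreted protein with a Kazal-type protease inhibitor domain, had the highest level of the 10 genes at 1805 ± 87.8 TPM (SD, n = 3). Tff3, a trefoil peptide, followed at 672 ± 83.0 TPM, Fcgbp at 526 ± 33.1 TPM and Agr2 at 402 ± 22.6 TPM. Each of these genes was separate from the next in every PBS-treated library. Muc2 was lower, at 106 ± 35.9 TPM. Spdef, Zg16 and Klf4 had 25.5 ± 5.75, 24.1 ± 3.75 and 22.3 ± 1.26 TPM, and neighbours among these 3 overlapped. Clca1 had 2.88 ± 0.618 TPM. Retnlb, a resistin-like molecule mostly known from the colon, was not detected with PBS, where a count of 0 allows up to 3 reads per library, and 1 read lay on it in the LDL-treated libraries of mice 1 and 3. Goblet cell products were therefore present in the organoids, with Retnlb at or under the counting floor in all 6 libraries. With LDL the order of the first 5 genes was unchanged, although Fcgbp and Agr2 now overlapped, as did Muc2 and Zg16. The level of Clca1, at 25.3 ± 15.3 TPM, overlapped that of Spdef in LDL-treated organoids.

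**Figure D1:**
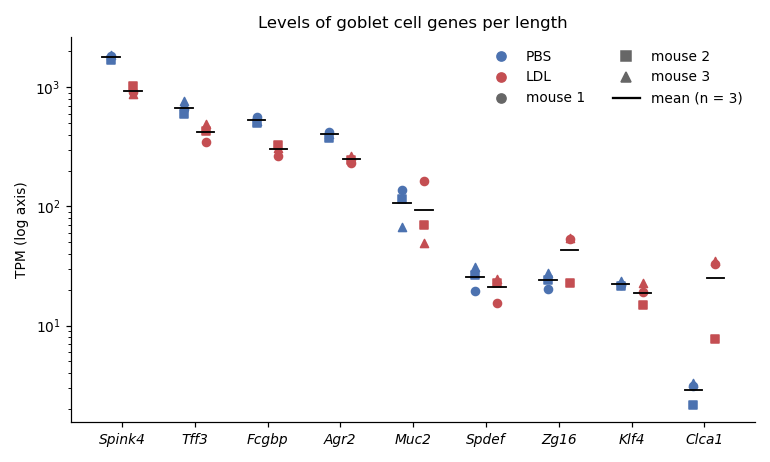
Levels per length (TPM, log axis) of 9 goblet cell genes, ordered by their mean in PBS-treated organoids, with 1 point per library, a symbol per mouse and a line at the mean of 3 libraries. Retnlb is left out, since no more than 1 read lay on it in any library; Spink4 stands highest, and the LDL-treated points of Clca1 lie above its PBS-treated points.

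The starts of 4 genes are printed, since 3 of them fell together with LDL and the last, Clca1, rose. Each line gives the 200 bases before the start of the canonical transcript of GENCODE M39, 5′ to 3′ on the strand of the gene in GRCm39. They are chr4:40919844-40920043 (plus strand), chr7:27770461-27770660 (plus strand), chr12:36042704-36042903 (plus strand) and chr3:144738538-144738737 (minus strand). Capitals mark matches to any of the motifs searched.
Spink4: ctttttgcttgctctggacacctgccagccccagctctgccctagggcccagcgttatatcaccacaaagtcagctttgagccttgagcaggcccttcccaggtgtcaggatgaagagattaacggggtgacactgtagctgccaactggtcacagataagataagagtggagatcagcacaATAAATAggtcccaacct
Fcgbp: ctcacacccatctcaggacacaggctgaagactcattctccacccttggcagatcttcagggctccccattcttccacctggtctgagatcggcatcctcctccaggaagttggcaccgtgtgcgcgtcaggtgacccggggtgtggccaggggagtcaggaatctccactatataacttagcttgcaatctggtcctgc
Agr2: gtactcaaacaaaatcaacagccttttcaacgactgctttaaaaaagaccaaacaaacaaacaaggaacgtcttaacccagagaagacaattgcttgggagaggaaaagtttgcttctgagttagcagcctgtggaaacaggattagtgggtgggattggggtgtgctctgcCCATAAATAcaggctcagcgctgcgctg
Clca1: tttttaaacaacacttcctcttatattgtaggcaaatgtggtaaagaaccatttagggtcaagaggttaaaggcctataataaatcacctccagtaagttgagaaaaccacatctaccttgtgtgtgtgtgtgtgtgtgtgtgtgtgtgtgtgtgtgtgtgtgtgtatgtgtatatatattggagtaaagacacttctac
The motifs were searched on both strands in these windows for all 10 genes and, as background, for 21627 protein-coding genes. The E-box CAGCTG, of the kind that Atoh1 can bind, was in the window of Muc2 only, 112 to 107 bases before its start, against 9.77% of all windows. The related E-box CAGATG and the forkhead motif TGTTTAC were in none of the 10, against 10.3% and 2.08% of all windows, and neither was the DR1 repeat of PPAR-type receptors, found in 0.037% of all windows. The sequence ATAAATA, an A-rich variant of the TATA box chosen after the sequences were seen, was in the windows of Spink4 and Agr2, against 3.74% of all windows. In Agr2 it overlapped a match to the CDX-type motif TTTATGG, which 1.72% of all windows held. TATAAA itself was in the windows of Muc2 and Zg16, against 9.6% of all windows. It lay 174 to 169 bases before the start of Muc2 and 12 to 7 bases before that of Zg16. The Clca1 window had the lowest share of G and C of the 10, 37.5%, and holds a long TG repeat.

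LDL-treated organoids had less RNA of Spink4, Fcgbp, Agr2 and Tff3 and more of Clca1 than PBS-treated organoids of the same mice. Of the 9 genes that had a mean normalized count of at least 10 and so could be tested, 4 were called lower and 1 higher (limma with the mouse as a block, adjusted p under 0.05 over all 18459 genes tested and a change of more than 1.5-fold). In the same fit 3.46% of all genes were called lower and 5.68% higher. The median log2 change of the 9 genes was -0.36, against -0.02 over all genes tested. In bulk organoids, fewer goblet cells and less RNA per goblet cell cannot be told apart.

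Spink4 lies on chromosome 4 from 40920044 to 40931396. Its normalized counts were 3483, 4631 and 3499 in the LDL-treated libraries of mice 1, 2 and 3, and 7418, 7556 and 7978 in their PBS-treated libraries. All LDL-treated values were below all PBS-treated values, and the log2 change on the scale of the normalized count plus 1 was -1.0 ± 0.10 (SE; adjusted p = 0.00113, limma), 1.99-fold lower. The level of Spink4 varied little among PBS-treated mice, 7651 ± 292 (SD, n = 3), and the fall within a mouse was larger than that spread in each of the 3.
Fcgbp, on chromosome 7 from 27770661 to 27820287, encodes a large mucus protein that is bound to Muc2. It had normalized counts of 14837, 21835 and 18171 with LDL and of 33546, 32445 and 32545 with PBS, in the order of the mice. The groups did not overlap, and its log2 change was -0.86 ± 0.13 (SE; adjusted p of limma = 0.00497). Fcgbp held 42.7% to 61.6% of the reads on the 10 genes.
Agr2, on chromosome 12 from 36042904 to 36054086, encodes the disulfide isomerase needed for Muc2 folding. Its normalized counts were 1676, 2110 and 1986 with LDL and 3220, 3154 and 3275 with PBS. The PBS-treated libraries were nearly alike, the LDL-treated ones all lay below them, and the log2 change was -0.75 ± 0.09 (SE; limma, adjusted p = 0.00199).
Tff3, on chromosome 17 from 31344280 to 31348620, had normalized counts of 956.2, 1405 and 1411 with LDL and 1913, 1930 and 2355 with PBS. Again no value overlapped, the log2 change being -0.73 ± 0.11 (SE; adjusted p = 0.00462, limma). Without the mouse block, Tff3 was not called (adjusted p of limma = 0.0806), while Spink4, Fcgbp and Agr2 were, in a fit that called 0.395% of all genes lower. Of the 4 calls, 3 depended on mouse 3. With its libraries left out, 0.417% of all genes were called lower and 1.44% higher, and of these 4 genes only Spink4 was called. The log2 changes of Agr2, Fcgbp and Tff3 were then -0.76, -0.87 and -0.73, with adjusted p-values of 0.0609, 0.1 and 0.0989 from limma. Among all genes tested, 12.3% had every LDL-treated value below every PBS-treated value.

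**Figure D2:**
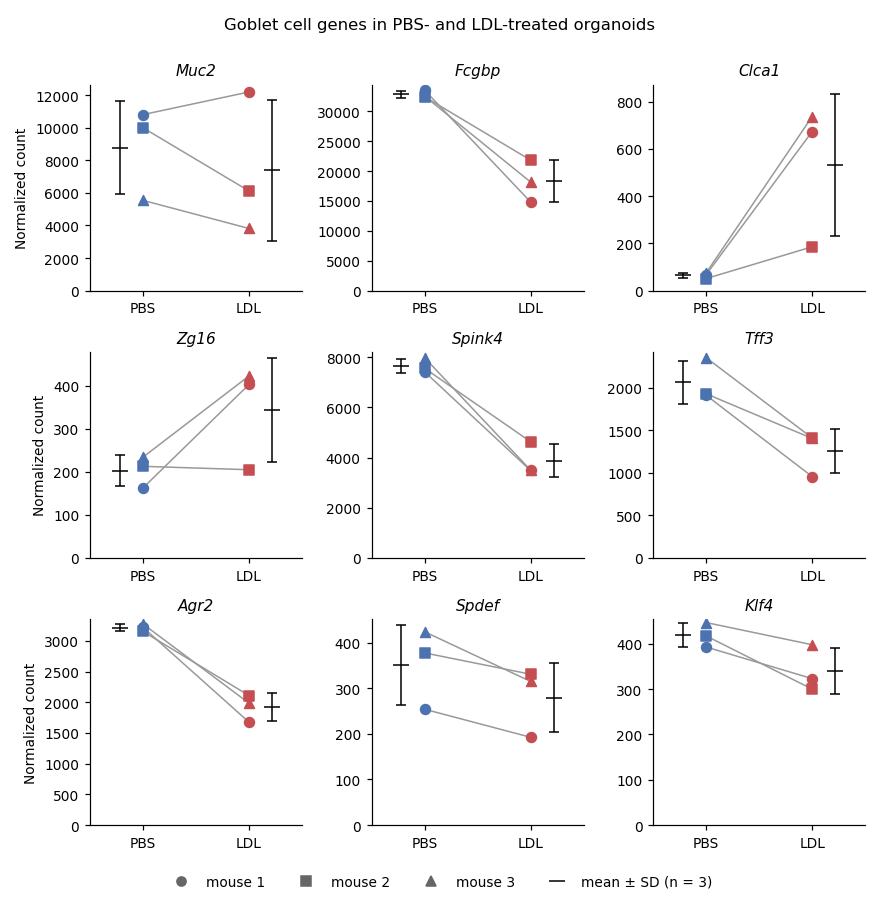
Normalized counts of 9 goblet cell genes in each library, with a line joining the PBS- and LDL-treated libraries of a mouse and bars for the mean ± SD (n = 3). Spink4, Fcgbp, Agr2 and Tff3 were lower and Clca1 higher with LDL in every mouse with no overlap, whereas the lines of Muc2 and Zg16 run in both directions.

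Clca1 moved the other way. The gene, on chromosome 3 from 144709578 to 144738537, encodes a secreted metalloprotease that processes Muc2 in mucus. Its normalized counts were 673.3, 185.5 and 736.7 with LDL and 67.4, 51.0 and 74.9 with PBS. Every LDL-treated value was above every PBS-treated value, but that of mouse 2 was much lower than the other two. Within a mouse, the rise was 9.99-fold, 3.64-fold and 9.84-fold, and the log2 change was 2.81 ± 0.27 (SE; limma, adjusted p = 0.000856). Clca1 was called also without the mouse block (adjusted p = 0.0413, limma), where 0.878% of all genes were called higher. Among all genes tested, 11.9% had every LDL-treated value above every PBS-treated value.
Zg16, on chromosome 7 from 126649302 to 126686500, encodes a lectin that binds Gram-positive bacteria. Its normalized counts were 402.5, 204.6 and 422.3 with LDL and 162.3, 212.5 and 233.7 with PBS, so that mice 1 and 3 had higher values with LDL and mouse 2 did not. The log2 change was 0.70 ± 0.23 (SE), which was not past the threshold (adjusted p of limma = 0.0803). Without mouse 1 it was 0.40 and without mouse 3 it was 0.63, called in neither fit (limma, adjusted p = 0.317 and 0.414). Zg16 was not called without the mouse block either (adjusted p = 0.234, limma). With mouse 2 left out the log2 change was 1.08 (limma, adjusted p = 3.82e-06), in a fit that called 8.69% of all genes higher and 7.3% lower. DESeq2 on the recovered reads also called Zg16 (adjusted p = 0.019 from DESeq2), and it called 5.31% of all genes higher and 2.77% lower. EdgeR did not (adjusted p = 0.0631 from edgeR), with 6.34% of all genes higher and 3.19% lower. The libraries in which Clca1 and Zg16 were highest, LDL-treated mice 1 and 3, were also those with reads on the most genes, and the part of this in the result was not tested.

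Muc2 itself, on chromosome 7 from 141276583 to 141308430, was not called. Its normalized counts were 12197, 6118 and 3815 with LDL and 10806, 9999 and 5542 with PBS. Mice 2 and 3 had less Muc2 with LDL and mouse 1 slightly more, and the values of the groups overlapped. Differences between mice were as large as those between treatments, with mouse 3 lowest in both. The log2 change was -0.36 with a 95% confidence interval of -0.72 to 0.01 (adjusted p = 0.172, limma), so that a fall like that of Spink4 lay outside the interval. Without mouse 1 it was -0.62 and was called (adjusted p of limma = 0.0068), in a fit that called 1.77% of all genes lower and 4.11% higher. Without mouse 2 it was -0.18 and without mouse 3 -0.27, called in neither (limma, adjusted p = 0.246 and 0.622). Muc2 was not called without the mouse block either (adjusted p of limma = 0.694). The LDL-treated library of mouse 1 held the high share of ribosomal RNA reads, and the part of this in the result was not tested. The ratio of Muc2 to Fcgbp normalized counts was 0.822 in that library and 0.17 to 0.322 in the other 5.
The maturation factors Spdef and Klf4 had lower values with LDL in each mouse, as did 26.8% of all genes tested, and neither was called. Spdef, an ETS factor on chromosome 17, had normalized counts of 192.7, 331.0 and 315.2 with LDL and of 254.2, 377.8 and 424.2 with PBS. Its groups overlapped, and the log2 change was -0.34 ± 0.11 (SE; limma, adjusted p = 0.0751). Klf4, a zinc finger factor on chromosome 4, had 323.2, 300.1 and 398.0 with LDL and 393.0, 417.5 and 447.0 with PBS, with overlap only between LDL-treated mouse 3 and PBS-treated mouse 1. Its log2 change was -0.31 ± 0.11 (SE; adjusted p = 0.0913, limma).

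**Figure D3:**
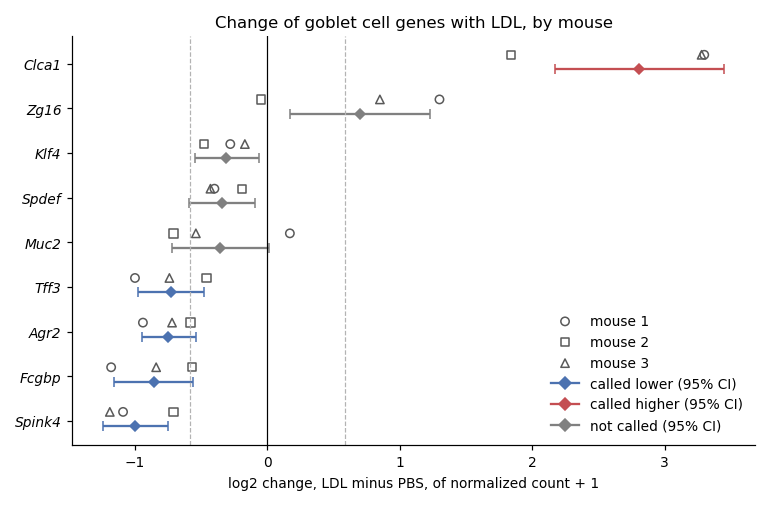
Change of the log2 normalized count plus 1 from PBS to LDL in each mouse (open symbols) and as estimated by limma with the mouse as a block (diamonds, with 95% confidence intervals); dashed lines mark 1.5-fold. Blue intervals belong to Spink4, Fcgbp, Agr2 and Tff3 and the red one to Clca1, where mouse 2 lies apart from mice 1 and 3.

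As a group, the 10 genes took 0.119%, 0.143% and 0.126% of all reads on genes in LDL-treated organoids of mice 1, 2 and 3 and 0.232%, 0.205% and 0.209% in PBS-treated organoids. The LDL-treated shares were all lower, and their 95% Wilson intervals, which cover counting error only, reached from 0.117% to 0.145% with LDL and from 0.203% to 0.234% with PBS. Fcgbp held 42.7% to 61.6% of these reads and Muc2 10.5% to 35.1%, so the shares reflect mainly these genes. The median change of the 9 tested genes was -0.40, -0.48 and -0.54 log2 in mice 1, 2 and 3. Of the 9, 6 were lower with LDL in mouse 1, 8 in mouse 2 and 7 in mouse 3.

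Other genes were taken from 7 lists, 6 of goblet cell and mucus genes and 1 of close relatives of the 10 genes. Of these, 84 genes could be tested, and limma called 15 lower and 7 higher, where 3.46% and 5.68% of all genes were called. The relatives gave 4 of the 15. Without the mouse block the counts were 2 and 1, where 0.395% and 0.878% of all genes were called. Without mouse 3 they were 1 and 2 (0.417% and 1.44% of all genes), and without mouse 1 they were 8 and 6 (1.77% and 4.11%). Taking any fold change at the same adjusted p gave 19 and 11, in a fit that called 7.45% of all genes lower and 8.27% higher. Among 16 other products of goblet cells 7 were lower and none was higher, with a median log2 change of -0.13. Of these 16, 2 were higher at an unadjusted p-value under 0.05 in limma, and edgeR and DESeq2 each called 2 higher. Guca2a, the precursor of the gut hormone guanylin, had normalized counts of 519.6, 874.8 and 612.1 with LDL and of 1365, 1325 and 1418 with PBS, and its log2 change was -1.07 (adjusted p of limma = 0.00329). Tpsg1, a tryptase gene, had the largest fall of this list, from 123.5, 125.5 and 130.3 with PBS to 24.4, 63.7 and 38.5 with LDL (limma, adjusted p = 0.00574). In both genes the LDL-treated library of mouse 2 was the nearest to the PBS-treated ones. Agr3, a neighbour and paralog of Agr2, and the calpain gene Capn9 had log2 changes of -1.12 and -1.05 (limma adjusted p = 0.0314 and 0.015). The chemokine gene Ccl9 and the genes Bcas1 and Klk1 were also called lower. Of the 7, 3 were called without mouse 1 and 0 without mouse 3. Reg4 and Bace2 had log2 changes of 0.58 and 1.11 and were not called by limma, Reg4 for its fold and Bace2 for its adjusted p, while edgeR and DESeq2 called both higher.

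Of 10 regulators of secretory fate and goblet maturation, 2 were called lower. Gfi1, a repressor that acts downstream of Atoh1, had normalized counts of 29.3, 47.3 and 43.5 with LDL and of 60.2, 73.3 and 83.0 with PBS, a log2 change of -0.85 (adjusted p = 0.0264, limma). Creb3l4, an endoplasmic reticulum-bound transcription factor, had -0.61 (adjusted p of limma = 0.0456). Neither was called without mouse 1, without mouse 3 or by DESeq2. Atoh1 had 203.7, 276.5 and 308.5 with LDL and 247.0, 336.8 and 469.8 with PBS, lower in each mouse but with overlapping groups (log2 change -0.39, limma adjusted p = 0.0604). Xbp1, which drives expansion of the secretory apparatus, passed the p-value threshold but not the fold threshold (log2 change -0.41, limma adjusted p = 0.0192). Foxa3 had a log2 change of -0.26 (limma, adjusted p = 0.295). Foxa1 went the other way, with a log2 change of 0.36 (limma, adjusted p = 0.0682). Of the 10 regulators, 7 had negative and 3 had positive log2 changes, with a median of -0.27. At an unadjusted p-value under 0.05 in limma, 5 were lower and 1, Foxa1, was higher. Among 12 folding genes of the endoplasmic reticulum, only the cargo receptor gene Tmed3 was called, with a log2 change of -0.70 (adjusted p = 0.0119, limma). Tmed3 was not called without mouse 1, without mouse 3 or without the mouse block. Qsox1 and Creld2 were higher and passed the p-value threshold but not the fold threshold (log2 change 0.37 and 0.43, limma adjusted p = 0.0151 and 0.0188). Ern2, which encodes the stress sensor IRE1β of mucous cells, had -0.15 (adjusted p of limma = 0.465), and the median of the list was 0.05.

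Of 20 tested enzymes that build and modify mucin sugars, 4 were called higher and none lower, with a median log2 change of 0.09. Of the 20, 3 were lower at an unadjusted p-value under 0.05 in limma, and edgeR and DESeq2 called 0 lower and 5 higher. Chst4, a sulfotransferase, had normalized counts of 156.1, 132.8 and 153.9 with LDL and of 45.9, 41.0 and 76.5 with PBS, a log2 change of 1.47 (limma, adjusted p = 0.00328), and it was called in the fit without the mouse block too. Gcnt3, which makes core 2 branches on O-glycans, had 2952, 1286 and 2664 with LDL and 1136, 857.4 and 1308 with PBS (log2 change 1.0, limma adjusted p = 0.00356). Its LDL-treated value in mouse 2 lay within the PBS-treated range. Gcnt1, its relative, had 204.9, 11.8 and 111.2 with LDL and 18.4, 8.70 and 13.8 with PBS (adjusted p = 0.0269, limma), again with the lowest LDL-treated value in mouse 2 and inside the PBS-treated range. The sulfotransferase gene Gal3st2 had a log2 change of 0.74 (adjusted p of limma = 0.0104), with overlapping groups. Without mouse 3, only Chst4 of the 4 was called. St6galnac1, which caps mucin sugars with sialic acid, had 20.7, 62.7 and 25.9 with LDL and 30.6, 29.8 and 12.2 with PBS and was not called.
Of 11 genes of granule release, crosslinking, detachment and hydration of mucus, Mep1b and Tgm2 were higher and Mep1a lower. Mep1b encodes meprin β, which frees Muc2 from the small intestinal surface, and is also a brush border enzyme of enterocytes. It had 947.7, 910.3 and 871.3 with LDL and 408.3, 684.7 and 398.1 with PBS (log2 change 0.92, limma adjusted p = 0.00737). Mep1a, the meprin α gene, had a log2 change of -0.71 (limma, adjusted p = 0.00875), and Tgm2, a transglutaminase, of 0.61 (adjusted p = 0.0145, limma). None of these 3 was called without mouse 3 or without the mouse block, and Tgm2 was not called without mouse 2 either. Tgm3, the transglutaminase that crosslinks Muc2 in the colon, had too few reads to be tested. Of 7 other mucin genes 1 was called, the transmembrane mucin Muc4, which rose from 1001, 601.4 and 648.1 with PBS to 2863, 1354 and 1364 with LDL (log2 change 1.25, limma adjusted p = 0.000376).

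**Figure D4:**
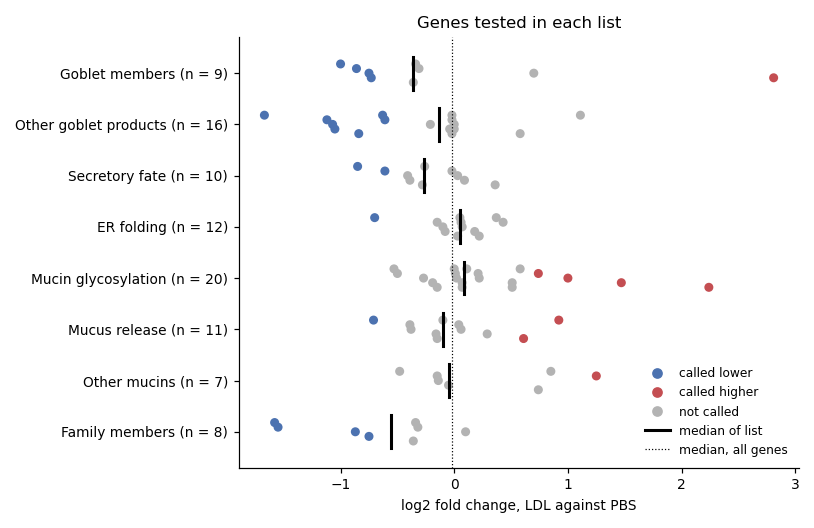
Log2 fold changes (LDL against PBS, limma with the mouse as a block) of the tested genes of each list, coloured by call, with a bar at the median of the list and a dotted line at the median of all genes tested, -0.02. Called goblet products lie on the left, called genes of mucin glycosylation on the right, and family members of the 10 genes mostly on the left.

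Close relatives of the 10 genes were tested where they had enough reads. Fcgbpl1, a neighbour of Fcgbp on chromosome 7 with which it could share reads, fell with it, from 982.0, 953.1 and 976.2 with PBS to 508.6, 603.8 and 628.0 with LDL (log2 change -0.75, limma adjusted p = 0.00265). The Clca genes lie side by side on chromosome 3 and can share reads. Clca4b fell from 4705, 8835 and 4657 to 1316, 3939 and 1498 (log2 change -1.55, limma adjusted p = 0.000354), and Clca4a had a log2 change of -0.87 (adjusted p of limma = 0.00795). Clca3b, Clca3a1 and Clca3a2 had log2 changes of -0.34, -0.36 and -0.32 and were not called. Spink1, a pancreatic-type trypsin inhibitor gene, had a log2 change of -1.58 (limma, adjusted p = 0.0033), and Klf5, the crypt counterpart of Klf4, of 0.10 (adjusted p = 0.649, limma). Of the 4 relatives called lower, only Clca4b was called without mouse 3 and only Fcgbpl1 without the mouse block. All 4 were called without mouse 1. Tff1 had 2.44 and 10.9 normalized counts in LDL-treated mice 1 and 3 and was not detected in the other 4 libraries, and Tff2 was not detected in any.

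Markers of other cell types were set beside these results, with calls by limma with the mouse as a block. Without mouse 3, the calls in these lists were those of 1 lower and 2 higher enterocyte markers, and without the block that of 1 higher enterocyte marker. Of 8 Paneth cell markers 3 were lower, Itln1, Defa24 and Defa17, and Mmp7 was higher. Without mouse 1, 1 of the Paneth cell markers was lower. Their summed normalized count was 13993 to 17108 with LDL and 18006 to 29050 with PBS. Itln1, an intelectin also made by goblet cells, had a log2 change of -1.18 (adjusted p of limma = 0.0155), and Lyz1 of -0.33 (limma, adjusted p = 0.16). Of 8 enteroendocrine markers only Tac1 was lower, with Chga at -0.16, and the sums were 7620 to 12063 and 9866 to 15478 with LDL and PBS. Of 4 tested tuft cell markers only Pou2f3 was lower, with Dclk1 at -0.45, sums of 186.4 to 494.0 and 242.3 to 339.9, and Il25 at 0 in 5 of 6 libraries. DESeq2 called 0 tuft cell markers lower and 1, Avil, higher (adjusted p = 0.0231 from DESeq2). Of 8 enterocyte markers Alpi and Apoa4 were higher, Alpi by 2.13 log2 (adjusted p = 2.84e-05, limma), and Lct was lower, with sums of 30192 to 56357 and 28108 to 53408. Of 6 stem cell markers Olfm4 and Smoc2 were lower and Ascl2 higher, with Lgr5 at 0.40 (adjusted p of limma = 0.366) and sums of 14359 to 20519 and 17833 to 33310. DESeq2 called 0 of these stem cell markers lower, and neither Olfm4 nor Smoc2 was called without mouse 1. EdgeR called 2 of them lower and 2 higher. Rnf43 was higher in each mouse and passed the p-value threshold but not the fold threshold (log2 change 0.56, limma adjusted p = 0.00279). Of the 6, 4 had positive and 2 had negative log2 changes, with a median of 0.31. Olfm4 differed by -0.01 log2 in mouse 2. None of 6 proliferation genes was called by limma, edgeR or DESeq2, and 1, Mcm2, had an unadjusted p-value under 0.05, with Mki67 at -0.06 and sums of 57973 to 64992 and 63320 to 66395. Stromal and immune markers summed to 30.9 to 81.7 and 141.9 to 222.0 with LDL and to 44.0 to 85.8 and 119.7 to 181.7 with PBS, with Col1a1 and Ptprc at no more than 12.2 in any library and none of the 3 tested genes called by limma, edgeR or DESeq2, of which 1, Pdgfrb, had an unadjusted p-value under 0.05. The summed Paneth cell markers of the LDL-treated libraries all lay below those of the PBS-treated ones, and their part in the result was not tested.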

How the data were processed

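RNA-Seq was analyzed in 6 libraries of organoids from 3 mice, each treated with LDL or PBS. The deposited signal values are normalized counts: per the methods and the labels, the authors removed ribosomal RNA, made stranded libraries, demultiplexed with bcl2fastq 2.20, aligned reads to GRCm39 with STAR, counted them per gene with featureCounts and used DESeq2. The strand setting of the counting is not given in the sources used here. Each deposited value divided by its library's step gave a whole read (100% of values above 0, within 0.01 reads), so reads could be recovered. Libraries of a replicate number carry the same animal identifier in the descriptions of the labels, and after the treatment means were removed their values correlated across 18459 genes with r = 0.484, 0.421 and 0.462 in mice 1, 2 and 3, so the mouse was a block of the main fit. The mice are the replicates.

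Gene names and positions came from GENCODE M39, which held 54749 of the 55416 identifiers. No exon of the 10 genes overlapped that of another gene. Log2 values of normalized counts plus 1 were tested with limma 3.58.1 in R 4.3.3 (eBayes with a trend, two-sided, Benjamini-Hochberg adjustment over the 18459 genes whose mean reached 10), and calls needed adjusted p under 0.05 together with over 1.5-fold. Alternatives were pseudocounts of 0.5 and 5, quantile normalization, upper-quartile scaling, a minimum mean of 50 or none, no block, both libraries of each mouse left out, any fold change, and edgeR 4.0.16 with TMM and DESeq2 1.42.0 on the recovered reads, both with the block. The fits were tested on simulated data. Other steps used pandas 2.3.3, matplotlib 3.10.9 and numpy 2.4.6 in Python 3.11.15. The 10 genes, the lists and the tests were chosen with earlier results of these data known. The text names the 10 genes, their relatives, up to 4 called genes with the largest changes per goblet cell list, and genes fixed by role (Atoh1, Gfi1, Foxa3, Xbp1, Ern2, Tgm3, Guca2a, St6galnac1 and a defining marker of each other cell type); others were named after their values were seen. The windows of 4 of the 10 genes are printed, and those of the other 6 are not reported here.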

Additional observations from a re-analysis of the deposited data

How the results depend on the processing

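Of the 10 genes 4 were called lower and 1 higher, and 13 alternatives were run. When each mouse was left out in turn, 1 to 5 of the 10 genes were called lower and 1 to 2 higher, and for the 7 further lists 1 to 17 were lower (15 with all mice) and 2 to 11 higher (7 with all mice). The same fits called 0.417% to 7.3% of all genes lower and 1.44% to 8.69% higher. Without the replicate block, that is, without pairing by mouse, the lists had 2 genes lower and 1 higher, and 3 of the 10 genes were lower. Over all genes the fit without the block called 73 lower and 162 higher, against 639 and 1048 with it. DESeq2 called 2 of the 10 genes higher, and any fold change gave 11 list genes higher. The cause of these moves was not tested. The log2 fold changes of the 9 tested genes kept their sign in all 12 alternatives that gave a value. They were between -1.14 and -0.90 for Spink4, -1.01 and -0.71 for Fcgbp, -0.83 and -0.65 for Agr2, -0.87 and -0.60 for Tff3 and 2.56 and 3.29 for Clca1. For Muc2 they were between -0.62 and -0.18 and for Zg16 between 0.40 and 1.08. Those of Spdef and Klf4 were between -0.41 and -0.29 and between -0.38 and -0.22. EdgeR on the recovered reads called 588 of all genes lower and 1171 higher, and of the 10 genes the same 4 and 1. Depth limits Retnlb, Tff1 and Tgm3, which have too few reads for a comparison.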

Other observations

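The genes most alike to single members in their pattern over the 6 libraries were listed after the values of the members had been seen, among 11938 other genes with a mean of at least 100, by the root mean square difference of centred log2 values. For Spink4 they included Elapor1 (0.101), Guca2a (0.108), the mucosal chemokine gene Ccl28 (0.11) and Fcgbp (0.114), beside Pccb (0.077), Acadsb (0.102) and Mccc2 (0.106) of amino acid breakdown. Elapor1, known from secretory cells, had normalized counts of 630.6, 861.2 and 651.4 with LDL and of 1325, 1152 and 1355 with PBS. For Clca1 no gene of the goblet cell lists was among the nearest 8. They were led by the cornified envelope genes Sprr2a2 (0.127), Sprr2a1 (0.144) and Sprr2a3 (0.188), near-identical copies that can share reads, followed by Areg (0.2), which encodes an EGF receptor ligand, a long noncoding RNA, Capg (0.298), Ajuba (0.307) and Ahnak (0.31). Areg had 4581, 894.8 and 3418 with LDL and 434.9, 300.7 and 439.6 with PBS, so that mouse 2 showed the smallest rise, as it did for Clca1. For Muc2 the nearest 8 held no gene of those lists either, and 4 of them were protein-coding, namely Il16 (0.225), Ppm1e (0.258), mt-Nd5 (0.31) and Kdm6a (0.317).

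The mean profile of the 9 tested genes varied only between -0.17 and 0.10 log2 over the libraries. It averages 7 genes with negative and 2 with positive log2 changes, which offset each other, so it describes no single gene. The 5 genes nearest to it, Eml2, Frmd6, Zfp513, A130010J15Rik and Smap1, were almost flat.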
